A study of Mus musculus with 26 samples.

Results

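The genes described here are 8 transcription factors that direct retinal precursors toward the photoreceptor fate and its rod and cone forms: Otx2, Crx, Nrl, Nr2e3, Prdm1, Rxrg, Thrb and Rorb. They were taken by name, with every probe set annotated to one of them alone, from 18193 genes that the array annotation names by at least 1 such probe set. This gave 10 probe sets for 7 of the factors. Nr2e3 was matched by none of them and is not analysed here. Each probe set was followed across 26 single mouse retinal cells, 13 labelled N1-CKO and 13 labelled WT.

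Photoreceptors arise from precursors that switch on the homeodomain factor Otx2, which in turn acts upstream of the related factor Crx. Prdm1 holds Otx2-expressing precursors on the photoreceptor path and away from the bipolar fate, Rorb acts upstream of Nrl, Nrl sets the rod fate over the cone fate, and Thrb and Rxrg are nuclear receptors of young cones. Notch1 signalling keeps retinal progenitors from differentiating, and its removal in the mouse retina is known for an excess of photoreceptors.

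All cells came from homozygous Notch1 flox retinas on a C57BL/6 background, electroporated at postnatal day 0, left to develop in vivo and dissociated at postnatal day 3. N1-CKO cells had received a plasmid with Cre under the CAG promoter and the reporter CALNL-GFP, which gives GFP only after Cre has acted. WT cells carried the same floxed alleles without Cre and had received CAG:GFP. The CAG promoter is active in many cell types, so neither group was chosen for a cell type, and single GFP-positive cells were picked by eye under a microscope. The cDNA of each cell was primed with oligo dT, amplified by PCR and hybridised to its own Affymetrix array. No label ties a cell to an animal or litter. Each group was therefore treated as 1 sample, no p-value is given, and the intervals below cover counting error over cells only.

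A factor is called detected where its MAS5 signal reached the 90th percentile of the cell's array, which marks 4504 probe sets in every cell. That threshold lay between 245 and 2164 signal units in N1-CKO cells and between 396 and 2409 in WT cells. Levels are log2 signals with values under 25.0, the median of all arrays, set to it. A gene with several probe sets was taken by the one with the highest mean log2 signal. Probe sets of different genes differ in brightness for the same amount of RNA, so levels are compared between cells and not between genes.

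The arrays differed in ways that cut across the groups. The 18S ribosomal control signal split them into 10 high arrays, of N1-CKO cells 3, 8, 9, 10 and 11 and of WT cells 8 to 12, and 16 low arrays with 8 cells of each group. Results are therefore also given within each set. The 3′ to 5′ signal ratio of Gapdh, a measure of how far the cDNA reached, had a median of 2.67 in N1-CKO cells (range 1.46 to 245) and 1.79 in WT cells (1.40 to 3.26). Of 2 Notch1 probe sets, the brighter had signals of 15.9 to 39239 (median 5462) in N1-CKO cells and 1.09 to 23914 (median 10102) in WT cells. It was detected in 8 N1-CKO and 10 WT cells, and since its place relative to the floxed part is unknown here, it does not check the deletion. Marker lists for microglia, astrocytes and pigment epithelium gave 0, 0 and 2 detections in all over N1-CKO cells and 1, 1 and 0 over WT cells. Of 6 endothelial genes 5 were detected in no cell, and Kdr, the sixth, was detected in 3 N1-CKO and 9 WT cells.

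The upstream sequences of the factors that were most alike across cells are shown first, so that short motifs known for these factors and for their upstream regulators can be read in place. The windows run from 250 bases before to 50 bases after a RefSeq transcript start in the assembly GRCm38.p6, on the strand of the gene. Capitals mark GGATTA, the core bound by Otx2 and Crx, and CAGATG, an E-box of the kind bound by Neurod1, each searched on both strands. The Crx window lies on the minus strand at chr7:15879906-15880205. The third of 4 Otx2 windows lies on the minus strand at chr14:48665060-48665359. The Nrl window lies on the minus strand at chr14:55524203-55524502.
Crx: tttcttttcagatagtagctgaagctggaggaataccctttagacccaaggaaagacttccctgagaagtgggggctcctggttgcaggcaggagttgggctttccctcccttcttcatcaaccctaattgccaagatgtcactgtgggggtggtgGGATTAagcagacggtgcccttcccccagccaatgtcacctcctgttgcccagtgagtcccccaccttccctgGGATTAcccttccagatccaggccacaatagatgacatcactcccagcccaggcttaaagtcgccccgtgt
Otx2, window 3: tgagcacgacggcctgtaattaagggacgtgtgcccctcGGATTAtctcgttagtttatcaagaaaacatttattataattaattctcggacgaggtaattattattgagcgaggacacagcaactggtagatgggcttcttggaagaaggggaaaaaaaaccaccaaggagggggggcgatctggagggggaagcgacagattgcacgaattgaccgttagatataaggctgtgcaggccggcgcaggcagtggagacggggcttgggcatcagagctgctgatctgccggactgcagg
Nrl: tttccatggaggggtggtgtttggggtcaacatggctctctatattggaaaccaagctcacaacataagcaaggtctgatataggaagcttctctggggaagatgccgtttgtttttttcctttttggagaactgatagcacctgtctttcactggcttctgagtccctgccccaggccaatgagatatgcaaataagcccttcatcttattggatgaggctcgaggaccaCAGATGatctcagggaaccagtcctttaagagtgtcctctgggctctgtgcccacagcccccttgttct
The Crx window held GGATTA at bases -94 to -89 from the start and again at -21 to -16. The Otx2 window held it once, at bases -211 to -206. A window of Thrb was the only other one of these factors to hold it, and 7.06% of the 32851 mouse windows of this length do. CAGATG stood at bases -19 to -14 from the Nrl start and in another Otx2 window, against 17.2% of all windows. GTGGGAA, a core of the kind bound by the Notch partner Rbpj, was in no window of the 8 factors and in 6.38% of all. AGGTCA, a nuclear receptor motif, was in windows of Rxrg and Thrb (16.3% of all), and TGCTGA, a motif of the Nrl family, was in windows of Otx2 and Rorb (19.5% of all). These matches describe the letters of the windows and say nothing of occupancy.

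Otx2, Crx and Prdm1 were each detected in more N1-CKO than WT cells, while Nrl was detected in 9 cells of each group. Otx2 was detected in 11 of 13 N1-CKO cells and 7 of 13 WT cells, Crx in 10 and 6, and Prdm1 in 10 and 4. Of the cone factors, Rxrg was detected in 3 N1-CKO cells and 1 WT cell, and Thrb, by its only probe set, in none of the 26. The median N1-CKO cell had 5 of the 7 measured factors detected (range 1 to 6), and the median WT cell had 2 (range 0 to 5). The lowest N1-CKO count came from cells 12 and 13, where Rorb alone was detected. Per N1-CKO and per WT cell the medians were 5 and 4 with the threshold at the 85th percentile and 3 and 0 at the 95th. They were 4 and 4 in high 18S arrays and 5 and 1 in low ones. With 1 signal threshold for all arrays they were 4 and 3, and with the Rorb probe set of widest range 4 and 2. Summed over cells there were 54 detections in N1-CKO cells and 33 in WT cells, of which Rorb gave 11 and 6. All genes together gave 35140 and 35190.

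Lists of progenitor and glial genes also differed in mean between the groups. Of 14 progenitor genes, all were detected in at least 2 cells, with 83 detections over N1-CKO cells and 117 over WT cells. Their means were higher in N1-CKO cells for 2 and lower for 12, and the median difference was -1.63 (-0.47 in high and -2.76 in low 18S arrays). The mean log2 signal of the list per cell ran from 6.60 to 11.91 in N1-CKO cells and from 8.23 to 12.75 in WT cells. Of 12 Muller glia genes, several of which progenitors also express, 10 were detected in at least 2 cells and all but Aqp4 in at least 1. Of those 10, 2 had a higher and 8 a lower mean in N1-CKO cells, and their median difference was -1.29 (0.04 in high and -2.06 in low 18S arrays). The per-cell mean of that list ran from 6.83 to 10.81 in N1-CKO cells and from 7.26 to 10.91 in WT cells. Of all 18193 genes, 8280 were detected in at least 2 cells. Of those 8280, 4015 had a higher and 4265 a lower mean in N1-CKO cells. Their median difference was -0.04 (0.18 in high and -0.15 in low 18S arrays). The part of the progenitor and Muller glia lists in the counts of the factors was not tested.

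**Figure D1:**
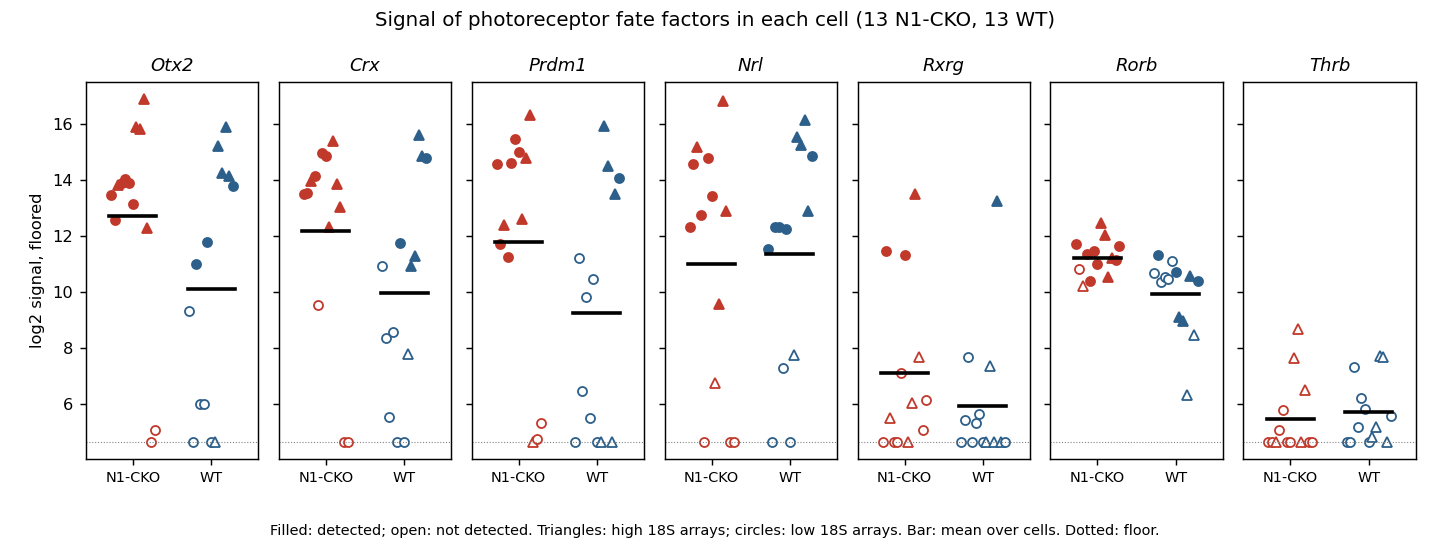
Log2 signal of each factor (vertical axis, floored at the dotted line) in the 13 N1-CKO cells (red, left) and the 13 WT cells (blue, right), with filled points for detected cells, triangles for high 18S arrays and a bar at the mean. Most N1-CKO points of Otx2, Crx and Prdm1 are filled and high, the WT points spread from the floor to the same height, and Thrb has no filled point.

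Otx2, the homeodomain factor at the head of the photoreceptor and bipolar programmes, had signals from 1.98 to 122398 with a median of 14682 in N1-CKO cells, against 1.34 to 61679 with a median of 2051 in WT cells. In N1-CKO cells 1 to 11 it was at 4933 or more, and in cells 12 and 13 it was at 1.98 and 33.0. In WT it was at 2051 or more in cells 3, 6 and 9 to 13 and at 644 or less in the other 6, so the groups overlapped. WT cells 1, 3, 4, 5 and 6 lay between 63.4 and 3571, where no N1-CKO cell did. Otx2 was thus detected in 84.6% of N1-CKO cells (exact 95% interval 54.6 to 98.1%) and 53.8% of WT cells (25.1 to 80.8%). Its mean log2 signal was 12.73 ± 3.74 in N1-CKO cells and 10.11 ± 4.42 in WT cells (SD over 13 cells each), a difference of 2.62. Among the cells that had it, the mean was 14.16 ± 1.45 in 11 N1-CKO cells and 13.73 ± 1.76 in 7 WT cells, which differ by 0.42, less than either SD. The difference over all cells therefore lay mostly in how many cells had the transcript.

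Crx, the homeodomain activator of rod and cone genes, was likewise detected in more N1-CKO cells. Its signal ran from 0.466 to 43001 with a median of 11814 in N1-CKO cells, against 0.742 to 50282 with a median of 1936 in WT cells. The 10 N1-CKO cells that had it were at 5182 or more, and cell 5 was at 741. In WT it was at 28169 or more in cells 11, 12 and 13 and between 1936 and 3474 in cells 6, 9 and 10. WT cell 1, at 1939, was as bright as WT cell 9 but under the threshold of its own array, 2233. Crx was detected in 76.9% of N1-CKO cells (46.2 to 94.96%) and 46.2% of WT cells (19.2 to 74.9%). Its mean log2 signal was 12.19 ± 3.65 in N1-CKO cells and 9.97 ± 3.78 in WT cells, a difference of 2.22. In cells that had Crx, the mean was 13.96 ± 0.93 in 10 N1-CKO cells and 13.20 ± 2.10 in 6 WT cells. These means differ by 0.76, less than either SD, while WT cells 6, 9 and 10 lay under every N1-CKO cell that had Crx. A dimmer Crx probe set was detected in 5 cells of each group, all 10 of them cells in which the first was detected. Its mean was higher by 1.91 in N1-CKO cells, and it correlated with the first at r = 0.73 over the 26 cells, which share arrays and amplification.

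Prdm1, also known as Blimp1, a zinc finger repressor of the bipolar programme, was also seen in more N1-CKO cells. Its signals ran from 4.91 to 82831 with a median of 6228 in N1-CKO cells and from 7.52 to 63025 with a median of 904 in WT cells. It was at 2416 or more in N1-CKO cells 1 to 10 and at 39.6 or less in cells 11, 12 and 13. In WT it was at 11724 or more in cells 9, 10, 12 and 13. WT cell 2, at 2377, lay just under its array's threshold of 2409, and WT cells 4 and 6 were at 904 and 1399. Prdm1 was detected in 76.9% of N1-CKO cells (46.2 to 94.96%) and 30.8% of WT cells (9.09 to 61.4%). With the threshold at the 85th percentile it was detected in 10 N1-CKO and 7 WT cells, and at the 95th in 8 and 4. The mean log2 signal was 11.80 ± 4.22 in N1-CKO cells and 9.24 ± 4.34 in WT cells, a difference of 2.57. In cells that had it the order was the other way, 13.87 ± 1.73 in 10 N1-CKO cells and 14.51 ± 1.04 in 4 WT cells, a difference of -0.64 that is smaller than either SD.

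Nrl, the leucine zipper factor that commits a photoreceptor precursor to the rod fate, did not share this shift. Its signals ran from 0.696 to 117038 with a median of 6882 in N1-CKO cells and from 1.62 to 73201 with a median of 5113 in WT cells. It was detected in 69.2% of the cells of each group (38.6 to 90.9%). The N1-CKO cells without it were cells 5, 8, 12 and 13, and the WT cells without it were cells 2, 5, 7 and 8. The mean log2 signal was 11.00 ± 4.42 in N1-CKO cells and 11.34 ± 4.01 in WT cells, a difference of -0.34. In cells that had it, the means were 13.59 ± 2.08 and 13.68 ± 1.75 in 9 cells of each group. The sign of the overall difference was not stable, as it was 0.84 with the cells whose Gapdh ratio was at most 3 and ran from -0.89 to 0.19 when any 1 cell was left out.

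Rorb, a nuclear receptor needed for rod formation in the mouse, was read differently by its probe sets. The brightest one had a narrow range, 1186 to 5590 in N1-CKO cells and 80.3 to 2561 in WT cells, close to the array thresholds. It was detected in 11 N1-CKO cells and 6 WT cells. Its mean log2 signal was higher by 1.31 in N1-CKO cells (2.60 in high and 0.50 in low 18S arrays). With the threshold at the 85th percentile it was detected in 100% of N1-CKO and 92.3% of WT cells, and at the 95th percentile in 15.4% and 0%, so the count of Rorb cells follows the threshold chosen. A second probe set was detected in 5 N1-CKO and 4 WT cells, with signals of 4.15 to 25008 in N1-CKO cells and 8.92 to 4439 in WT cells. By that second probe set the mean was higher by 1.01 in N1-CKO cells, which was 3.35 in high and -0.45 in low 18S arrays. The pair correlated at r = 0.07 over the 26 cells and shared 6 detected cells. The last of its probe sets was detected in no cell. Rorb is therefore left out of the combinations below.

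Rxrg, the retinoid X receptor of cones and some other retinal cells, was detected in N1-CKO cells 2, 7 and 10 at 2794, 2572 and 11575 and in WT cell 11 at 9642. The highest signal elsewhere was 205 in N1-CKO cells and 203 in WT cells, so detected and other cells were far apart. At the 95th percentile it was detected in 7.69% of the cells of each group. All 4 cells with Rxrg also had Otx2, Crx and Nrl. The mean log2 difference was 1.17, but it was 0.64 without N1-CKO cell 10 and 1.78 without WT cell 11, the one WT cell that had it. Thrb, the thyroid hormone receptor of medium-wavelength cones, reached 410 at most in N1-CKO cells and 207 in WT cells. Its only probe set was detected in 0 of 13 cells of each group. The exact upper limit of that share, 24.7%, assumes a probe set that can report Thrb, which no cell here shows.

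Read against all genes, 5 of the 6 factors detected in at least 2 cells had a mean log2 signal at least 1 higher in N1-CKO cells, and none was lower by 1. Of 8280 genes detected in at least 2 cells, 19.1% were higher by at least 1 and 22.3% were lower by at least 1. The median difference of the 6 factors was 1.76, beside -0.04 for all 8280 genes. Otx2, Crx, Prdm1 and Rorb were each detected in at least 4 more N1-CKO than WT cells, a limit chosen after their counts were seen. The gap depended on the threshold. At the 85th percentile Otx2 kept it, with 11 N1-CKO and 7 WT cells, while Crx was detected in 11 and 8, Prdm1 in 10 and 7, and Rorb in 100% and 92.3% of cells. With 1 signal threshold for all arrays, Otx2 was detected in 11 and 7, Prdm1 in 10 and 6, and Crx in 10 and 7. Over all genes, 5.43% were detected in at least 4 more N1-CKO cells and 6.73% in at least 4 fewer.

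**Figure D2:**
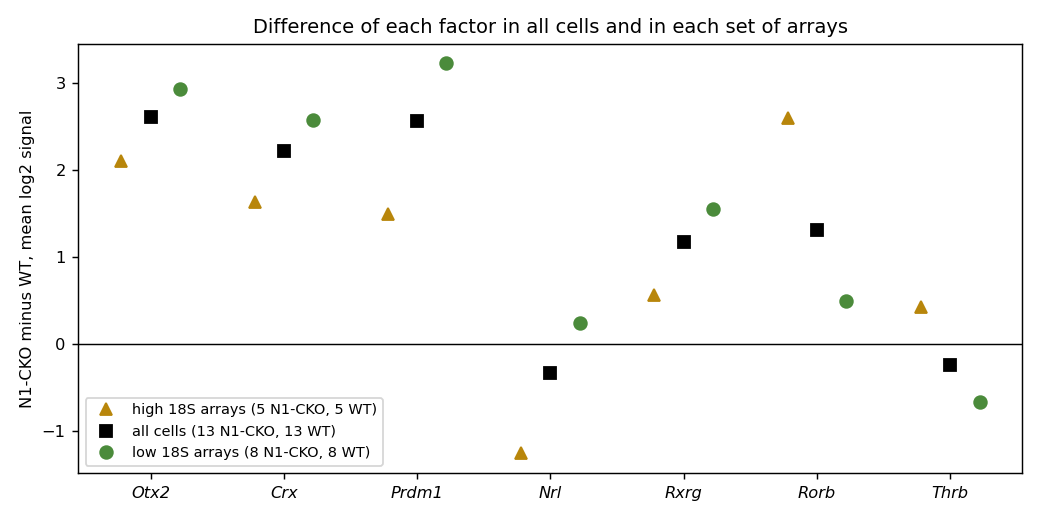
Difference of mean log2 signal, N1-CKO minus WT (vertical axis), for each factor in high 18S arrays (triangles, 5 cells of each group), in all cells (squares, 13 of each) and in low 18S arrays (circles, 8 of each). Otx2, Crx, Prdm1, Rxrg and Rorb lie above 0 in all 3, while Nrl and Thrb lie on both sides of it.

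The factors were unevenly spread over the 2 sets of arrays in WT. Among high 18S arrays, Otx2 was detected in 5 of 5 N1-CKO and 4 of 5 WT cells, Crx in 5 and 4, and Prdm1 in 4 and 3. Among low 18S arrays, Otx2 was detected in 6 of 8 N1-CKO and 3 of 8 WT cells, Crx in 5 and 2, and Prdm1 in 6 and 1. The gap in cell number thus lay mostly in the low arrays. The mean log2 difference was 2.10 in high and 2.94 in low arrays for Otx2, 1.64 and 2.58 for Crx, and 1.50 and 3.23 for Prdm1. By the dimmer Crx probe set it was 0.38 in high and 2.86 in low arrays. In high arrays that probe set was detected in 3 N1-CKO and 4 WT cells. For Nrl the difference was -1.26 in high and 0.24 in low arrays. The part of the array sets in these differences was not tested. The median over the 6 factors was 1.57 in high arrays and 2.07 in low arrays, where all genes had medians of 0.18 and -0.15.

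The combinations in single cells were ordered, in that Crx and Prdm1 were never detected without Otx2. Otx2, Crx, Prdm1 and Nrl were all detected in 8 N1-CKO cells (cells 1 to 4, 6, 7, 9 and 10) and in 4 WT cells (cells 9, 10, 12 and 13). That is 61.5% of N1-CKO cells (31.6 to 86.1%) and 30.8% of WT cells (9.09 to 61.4%). None of the 4 was detected in N1-CKO cells 12 and 13 and in WT cells 2, 5, 7 and 8. At least 3 of the 4 were detected in 10 N1-CKO and 6 WT cells, which was 5 of 5 and 4 of 5 cells in high 18S arrays and 5 of 8 and 2 of 8 in low ones.

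**Figure D3:**
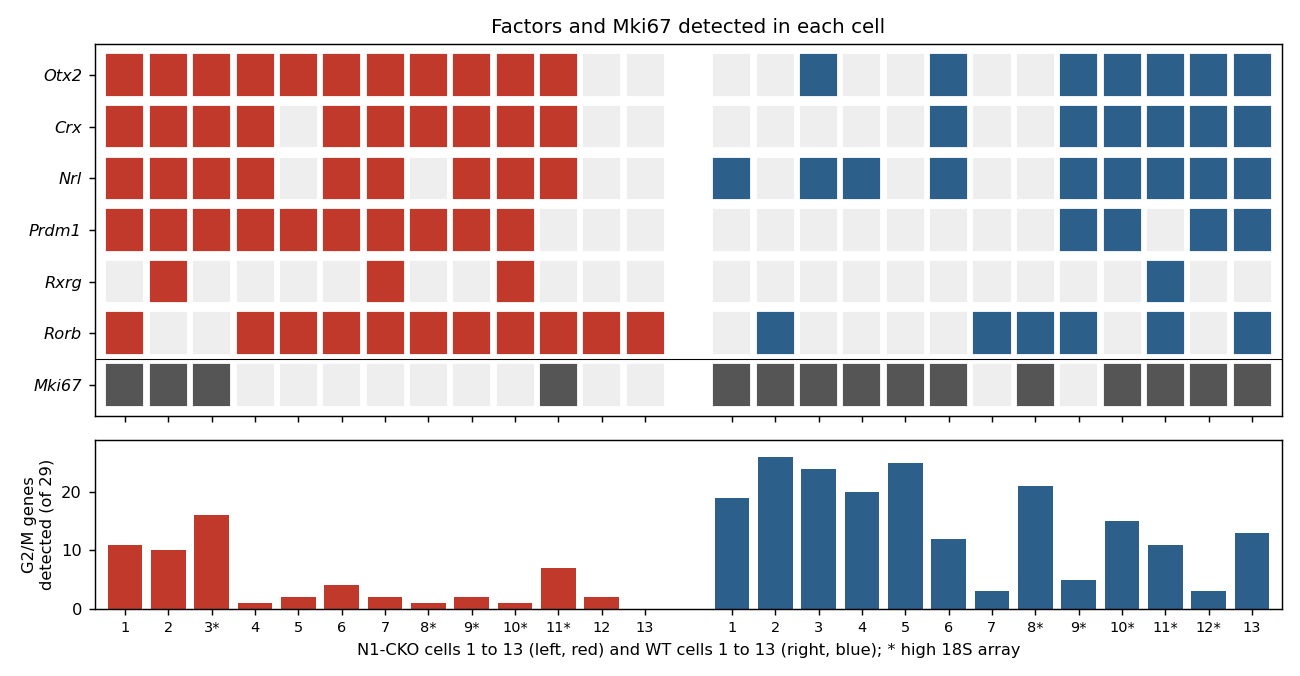
Detection of 6 factors and of Mki67 (rows, coloured where detected) in each cell (columns, N1-CKO in red on the left, WT in blue on the right, high 18S arrays starred), above the number of 29 G2/M genes detected in that cell (bars). Red columns are mostly full from Otx2 to Prdm1 with short bars, and blue columns with long bars are mostly empty in the Prdm1 row.

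The order of the factors was not the same in the groups at this threshold. In N1-CKO cells each of the 9 cells with Nrl also had Crx, and each of the 10 with Crx also had Otx2, so Otx2 was the most widely detected. Otx2 stood without Nrl in N1-CKO cells 5 and 8, which had Otx2 with Prdm1 and Otx2 with Crx and Prdm1. In WT cells each of the 6 cells with Crx had Otx2 and each of the 7 with Otx2 had Nrl, so Nrl was the most widely detected. Nrl stood without Otx2 in WT cells 1 and 4, at 2992 and 5113, where Otx2 was at 644 and 63.6. Cells with Prdm1 had Otx2 in 10 of 10 N1-CKO and 4 of 4 WT cells.

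Part of this order depended on the threshold. At the 85th percentile, Crx was detected without Otx2 in 0 N1-CKO and 2 WT cells, and Prdm1 without Otx2 in 0 and 2. At the 95th percentile Crx was detected without Otx2 in 1 N1-CKO and 0 WT cells. With 1 signal threshold for all arrays, Crx and Prdm1 were each detected without Otx2 in 0 N1-CKO cells and 1 WT cell. Otx2 was detected without Nrl in 2 to 4 N1-CKO cells and in 0 WT cells under each of the 5 ways of calling detection that were tried. Nrl was detected without Otx2 in 0 or 1 N1-CKO cells and in 1 or 2 WT cells. With all 4 factors there were 4 to 8 N1-CKO and 2 to 5 WT cells, and more N1-CKO than WT cells under each of the 5.

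The signals of Otx2, Crx, Nrl and Prdm1 also rose and fell together over all 13 cells of each group. Cells without detection are included, many of them at or near the floor. The correlations therefore partly restate which cells had the factors detected. Of 4681 genes ranked by the mean of their correlations with Otx2 within the 13 N1-CKO and within the 13 WT cells, Crx was first, with a mean r of 0.82. Nrl was at rank 10 and Prdm1 at rank 21. For Nrl, the correlation with Otx2 was 0.55 in N1-CKO cells and 0.91 in WT cells, and for Prdm1 it was 0.80 and 0.52. Rorb was at rank 3589 and had a mean r of -0.22. These values describe 13 cells of each group, which share dissociation, amplification and array sets.

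**Figure D4:**
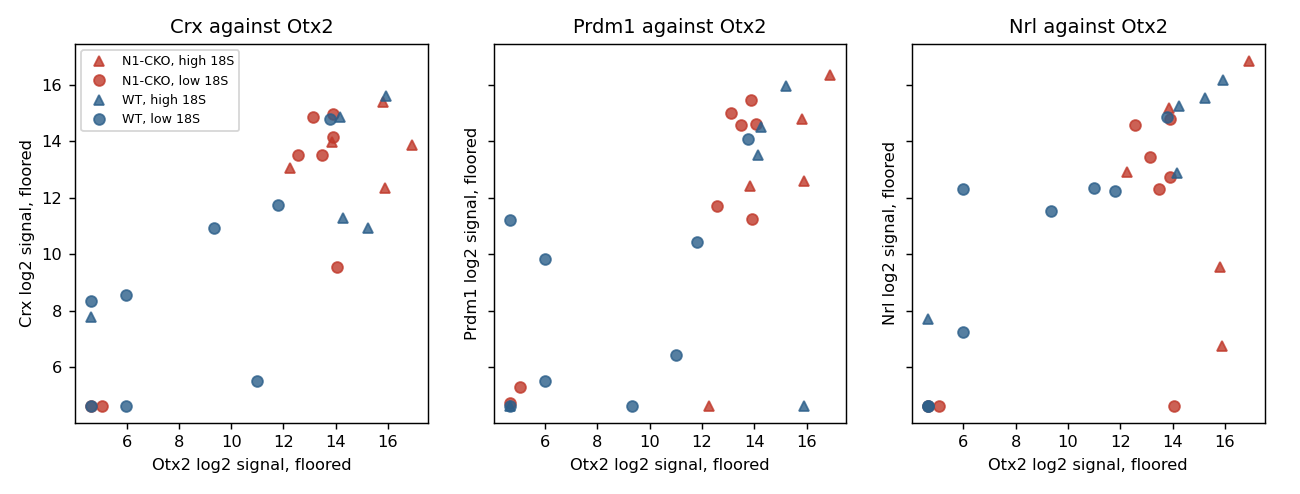
Floored log2 signals of Crx, Prdm1 and Nrl (vertical axes, left to right) against that of Otx2 (horizontal axis) in each N1-CKO cell (red) and WT cell (blue), with triangles for high 18S arrays. N1-CKO points mostly gather at the upper right or lower left, and for Nrl the red points at the lower right are cells with Otx2 and little Nrl.

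The genes outside the set that were most like each factor were taken by the same measure from genes detected in at least 6 cells. For Otx2 they were the ephrin receptor gene Epha8 (mean r 0.81), the antiproliferative gene Btg2 (0.80) and Tpd52 (0.78). Btg2 was detected in 11 N1-CKO and 7 WT cells, the same numbers as Otx2. For Crx they were Ankrd33b (0.76), the proneural factor gene Neurod4 (0.73) and Tpd52 (0.73). For Prdm1 they were Neurod4 (0.78), Tpd52 (0.76) and Epha8 (0.74), so the lists of Otx2, Crx and Prdm1 shared genes. Those of Nrl were different, the fatty acid binding protein gene Fabp7 (0.80), Cltb (0.72) and the rod disc gene Rom1 (0.72). Rxrg, by the same measure, was nearest to H1f2, Rtl8c and Mapk1ip1 (0.63, 0.62 and 0.61), but its correlations in WT rest on the 1 cell that had it. Rorb was most like Oga, Fads1 and 2610005L07Rik (0.68, 0.63 and 0.59).

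Photoreceptor factors were found in cells with transcripts of the cell cycle in both groups. Mki67, a gene of proliferating cells, was detected in 4 N1-CKO cells (cells 1, 2, 3 and 11) and 11 WT cells. All 4 of those N1-CKO cells had Otx2, Crx and Nrl. Of the 11 WT cells with Mki67, 6 had Otx2, 5 had Crx and 8 had Nrl. Prdm1 was detected in 3 of the N1-CKO and 3 of the WT cells with Mki67. Otx2 and Mki67 thus occurred together in 4 N1-CKO and 6 WT cells, out of 11 and 7 with Otx2.

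The same overlap was seen with a list of 29 measured genes of G2 and mitosis. N1-CKO cells had a median of 2 of them (range 0 to 16) and WT cells a median of 15 (range 3 to 26). At least 10 were detected in N1-CKO cells 1, 2 and 3 and in 10 WT cells, with 2 cells of each group within 2 genes of that number. Each of the 3 N1-CKO cells had Otx2, Crx, Prdm1 and Nrl. Of the 10 WT cells, 5 had Otx2, 4 had Crx, 7 had Nrl and 2 had Prdm1. WT cell 10, with 15 of the genes, and WT cell 13, with 13, were the WT cells that had all 4 factors and at least 10 of the genes.

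Genes of G1/S and replication overlapped with the factors in partly different cells. Of 23 measured, N1-CKO cells had a median of 3 (range 1 to 13) and WT cells a median of 8 (range 3 to 17). N1-CKO cell 4, with all 4 factors, no Mki67 and 1 G2/M gene, had 13 of them. N1-CKO cells 2 and 3 had 11 and 10, and the other 5 N1-CKO cells with all 4 factors had 1 to 5. WT cells 12, 10, 13 and 9, the WT cells with all 4 factors, had 13, 12, 9 and 3.

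**Figure D5:**
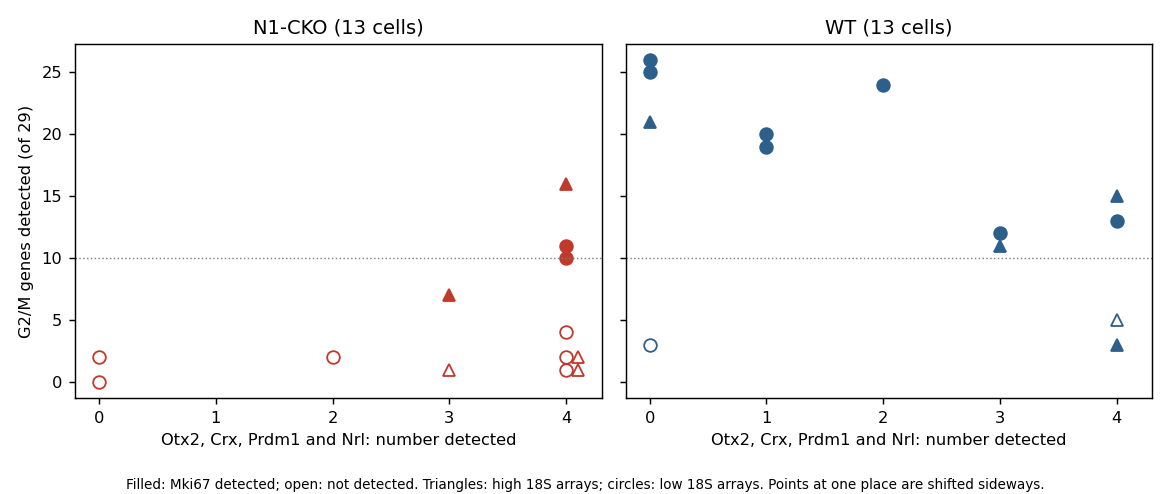
Number of 29 G2/M genes detected (vertical axis) against how many of Otx2, Crx, Prdm1 and Nrl were detected (horizontal axis) in each N1-CKO cell (left) and WT cell (right), filled where Mki67 was detected, with triangles for high 18S arrays and a dotted line at 10 genes. N1-CKO cells with all 4 factors lie between 1 and 16 genes, and the WT cells with the most G2/M genes, 26, 25 and 24, have 0, 0 and 2 of the factors.

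Cells with none of the 4 factors differed among themselves in what else they held. N1-CKO cells 12 and 13 had 2 and 0 G2/M genes and 4 and 6 of 14 amacrine and horizontal genes, among them Tfap2a, Tfap2b, Gad2 and Pax6 in both. WT cell 7 had 3 G2/M genes and the same 4 genes. Those 4 were not limited to such cells, as they were also detected in N1-CKO cell 2, which had all 4 factors, in N1-CKO cell 11, which had Otx2, Crx and Nrl, and in WT cell 1, which had Nrl. WT cells 2 and 5 had 26 and 25 G2/M genes and 12 and 11 of 14 progenitor genes, and of the amacrine and horizontal list they had only Pax6, which progenitors express too. WT cell 8 had 21 G2/M genes, 5 progenitor genes, Tfap2b and Pax6. The Gapdh ratio was above 3 in N1-CKO cells 4, 5, 6, 12 and 13, which had 4, 2, 4, 0 and 0 of the 4 factors. It was also above 3 in WT cells 3 and 7, at 3.24 and 3.26, which had 2 and 0 of them. The part of this ratio in detection was not tested. With cells above that limit left out, 8 of 8 N1-CKO and 6 of 11 WT cells had Otx2 and Crx.

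Among factors that act before or beside these, 25 of 32 measured genes were detected in at least 2 cells. Of them 20 had a higher and 5 a lower mean in N1-CKO cells, 9 by at least 1 higher and 3 by at least 1 lower, with a median difference of 0.65. Over all 8280 genes 4015 were higher and 4265 lower, 1584 and 1844 of them by at least 1. Neurod1, a proneural factor, was detected in all 13 N1-CKO cells and in 9 WT cells. N1-CKO cells 12 and 13 therefore had Neurod1 without Otx2. The mean log2 signal of Neurod1 was 14.28 ± 1.07 in N1-CKO cells and 11.61 ± 3.56 in WT cells. This difference of 2.67 was 1.23 in high and 3.57 in low 18S arrays. Neurod4 was detected in 9 cells of each group, Hes6 in 11 N1-CKO and 10 WT cells, and Sox4 in 13 and 12. Mef2d, a partner of Crx, was detected in 8 N1-CKO and 6 WT cells and its mean was higher by 2.56, which was 0.76 in high and 3.68 in low 18S arrays. Lhx4 was detected in 5 N1-CKO cells and 1 WT cell and its mean was higher by 2.90 (2.41 and 3.20).

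Some genes of that list had a lower mean in N1-CKO cells or differed between the sets of arrays. Foxn4, a progenitor factor, was detected in 2 N1-CKO and 6 WT cells with a difference of -1.17 (-0.19 in high and -1.78 in low 18S arrays). Sox11 was detected in 6 N1-CKO and 9 WT cells with a difference of -1.19 (-2.99 in high and -0.06 in low arrays). Meis1 was detected in 8 N1-CKO and 5 WT cells, but its difference was 5.22 in high and -1.12 in low 18S arrays. Of the receptors related to Rxrg and Thrb, Rxrb was detected in 5 N1-CKO and 3 WT cells, Thra in 7 and 8, and Rxra in 0 and 3. Rax (9 N1-CKO and 8 WT cells), Samd11 (5 and 6), Pias3 (6 and 5), Tbx2 (6 and 5), Meis2 (6 and 6), Nr1d1 (5 and 3), Neurog2 (4 and 3), Insm1 (4 and 2) and Casz1 (4 and 2) differed by no more than 2 cells.

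Genes that rods and cones use later were detected in part. Of 23 rod genes measured, 10 were detected in at least 2 cells, beside 8280 of all 18193 genes. Of these 10 rod genes, 7 had a higher and 3 a lower mean in N1-CKO cells. Their median difference was 0.61, which was -0.43 in high and 1.02 in low 18S arrays. Rbp3, the retinoid carrier of the space around photoreceptors, was detected in 7 N1-CKO and 5 WT cells. Rom1 was detected in 5 and 4, Tulp1 in 4 and 3, Sag, the rod arrestin, in 3 and 2, and Pde6g in 3 and 1. Unc119 was detected in 10 N1-CKO and 8 WT cells and Gnb1, which many cells use, in all 26. Of the cone list, Gnb3 was detected in 9 N1-CKO and 4 WT cells with a difference of 3.12 (2.21 in high and 3.69 in low 18S arrays). Ccdc136 was detected in 10 and 7 with a difference of 1.85 (0.19 in high and 2.89 in low arrays), and Gngt2 in 3 and 2.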

How the data were processed

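Values are MAS5 signals, per the submitters' processing notes, deposited by the authors as linear intensity with a trimmed mean near 500 on every array (2% off each end). They hold no read depth, and the number of cells limits the precision. Probe sets were named from GEO's platform annotation, where 34945 of 45101 have 1 gene symbol and 932 several, and the latter were not used. Control probe sets (64) were left out of the detection thresholds. No test was made, because the labels name no animal. Shares have Clopper-Pearson 95% intervals. All members were named, and for each detected in at least 4 cells the 3 most alike genes. From the upstream list genes detected in at least 6 cells were named, and from the rod and cone lists those detected in at least 4. The members and all 15 lists were chosen with earlier results of these data known. High and low 18S arrays were split at the largest gap of that log2 signal. The steps were tested on simulated data. Python 3.11.15, numpy 2.4.6, pandas 2.3.3 and scipy 1.17.1 were used. Alternatives tried were other thresholds, floors, quantile normalization, probe sets, array sets and leaving out each cell.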

Additional observations from a re-analysis of the deposited data

How the results depend on the processing

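Values were recomputed under 40 settings, 26 of them leaving out 1 cell, which gave 1004 values. Of these, 985 stayed within wide limits, 19 moved and 0 turned in sign among values past the limit of 1. The limit for a difference was the spread over cells. Shares of cells that stayed inside their exact intervals were counted among the 985. WT cells with Otx2 and Crx were so counted at 46.2% and, at the 95th percentile, 23.1%. So were WT cells with Prdm1, at 30.8% and, in high 18S arrays, 60%. The median of 2 factors per WT cell was also counted as kept at 1 in low 18S arrays. The differences of Otx2, Crx, Prdm1, Rxrg and Rorb kept their sign in 36 of 36 settings each. That of Nrl kept it in 27 and that of Thrb in 33. Of those 36 settings, 26 only left out 1 cell. None took the second Rorb probe set within the array sets, where its difference was 3.35 in high and -0.45 in low 18S arrays. Leaving out 1 cell gave 2.16 to 3.29 for Otx2, 1.77 to 2.85 for Crx and 2.18 to 3.16 for Prdm1. The median number of factors per WT cell was 4 at the 85th percentile, 0 at the 95th and 4 in high 18S arrays, where per N1-CKO cell it was 5, 3 and 4. Otx2 with Crx was detected in 100% of N1-CKO and 80% of WT cells in high 18S arrays, and in 100% of the N1-CKO cells left when Gapdh ratios above 3 were dropped. The cause was not tested, beyond these settings using fewer cells or another threshold. With the Rorb probe set of widest range, chosen after seeing the data, 38.5% of N1-CKO cells had Rorb. No paired analysis was possible because the results come from no test and the cell numbers name no shared animal.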

Other observations

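Few genes of the bipolar fate were detected in either group. Of 12 bipolar genes measured, 3 were detected in at least 2 cells and 8 in none. They gave 5 detections over N1-CKO cells and 8 over WT cells. Of all 18193 genes, 8280 were detected in at least 2 cells and 7618 in none. Absence was also common in other lists, with 11 of 23 rod genes and 5 of 9 ganglion cell genes detected in no cell. Prdm8 was detected in 4 cells of each group. Of the amacrine and horizontal list, Tfap2b was detected in 5 cells of each group, Slc6a9, a glycine transporter, in 4 N1-CKO cells and 1 WT cell, and Gad2, which makes GABA, in 4 N1-CKO and 3 WT cells. Pax6 was detected in 8 N1-CKO and 11 WT cells.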
